A study of Mus musculus with 5 samples.

Results

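Chemokines, the interleukin 1 family and their receptors were followed through embryo attachment as 65 genes of the 23420 in a count table from the luminal layer of the mouse uterus. The genes were taken by name. They comprised every gene whose symbol starts with Ccl, Cxcl, Ccr, Cxcr or Ackr followed by a number, and 12 cytokine and receptor genes chosen individually (Il1a, Il1b, Il1rn, Il1r1, Il1r2, Il1rap, Il18, Il33, Il15, Csf1, Csf2 and Csf3). By role, 36 were chemokine ligands, 16 were chemokine receptors and 1 was the atypical receptor Cxcr7, an older symbol of Ackr3. Another 8 belonged to the interleukin 1 family and its receptors, and 4 were other cytokines.

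The study asked how the uterine epithelium passes from receptivity to attachment, and 5 RNA-seq libraries of its wild-type uteri are described here. All came from C57BL/6N females with the wildtype genotype, and no allele or hormone treatment is named for them. With the day of the vaginal plug as day 1 of pregnancy, there was 1 library for the morning of day 3, 1 each for the morning and the evening of day 4, and 2 for the morning of day 5. Of the last 2, 1 held layer taken away from the attached embryo (D5 away) and 1 held layer surrounding it (D5 around). The day 5 libraries therefore differ in place and not in time. Their descriptions name D5 away as Mpole and D5 around as Ampole, read here as the mesometrial and anti-mesometrial poles. Pole and distance from the embryo therefore cannot be told apart in any comparison of the 2. The study's methods mark attachment sites from day 5 by intravenous Chicago blue dye and describe laser microdissection of luminal epithelium. The methods pool several independent samples into each library of the study's Lif groups. Whether these wild-type libraries were pooled, and the age of the mice, are not given in the sources used here. With 1 library per condition, no difference below has a replicate check, no p-value is given, and brackets hold an exact 95% interval of the ratio of counts that covers counting error only.

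Chemokines are small secreted proteins that guide leukocytes through G protein-coupled receptors, with CXC ligands read mainly by Cxcr receptors and CC ligands by Ccr receptors. Atypical receptors bind chemokines and remove them without classical G protein signalling. Interleukin 1 alpha and beta act through Il1r1 with its co-receptor Il1rap, while the antagonist Il1rn occupies the receptor without signalling and the decoy Il1r2 binds the ligand. In the pregnant uterus these factors are studied for the recruitment of macrophages, neutrophils and natural killer cells and for signals between the blastocyst and the epithelium.

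The stretch of 250 bases before the transcription start was read for the genes with at least 10 counts per 1000000 (CPM) in a library, from RefSeq sequence of GRCm38.p6. There were 17 such genes and 12 had an entry. The 3 printed here, chosen after their values were seen, have a single start, overlap no annotated exon and hold 1 searched motif, which is in capitals. All 3 genes had higher counts in D5 away than on day 4 morning. Il1a is at chr2:129309973-129310222 on the minus strand, Cxcl14 at chr13:56296552-56296801 on the minus strand and Csf1 at chr3:107760470-107760719 on the minus strand, each written 5′ to 3′ along the gene.
Il1a: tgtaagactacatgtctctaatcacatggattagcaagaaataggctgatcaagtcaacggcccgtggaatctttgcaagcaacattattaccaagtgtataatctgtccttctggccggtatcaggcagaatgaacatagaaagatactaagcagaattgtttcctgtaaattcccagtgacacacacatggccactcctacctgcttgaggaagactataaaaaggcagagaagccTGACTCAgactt
Cxcl14: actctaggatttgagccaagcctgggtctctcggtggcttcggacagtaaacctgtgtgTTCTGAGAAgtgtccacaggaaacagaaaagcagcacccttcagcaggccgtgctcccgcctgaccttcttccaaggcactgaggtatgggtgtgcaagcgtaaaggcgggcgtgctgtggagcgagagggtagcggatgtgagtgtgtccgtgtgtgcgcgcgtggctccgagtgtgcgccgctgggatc
Csf1: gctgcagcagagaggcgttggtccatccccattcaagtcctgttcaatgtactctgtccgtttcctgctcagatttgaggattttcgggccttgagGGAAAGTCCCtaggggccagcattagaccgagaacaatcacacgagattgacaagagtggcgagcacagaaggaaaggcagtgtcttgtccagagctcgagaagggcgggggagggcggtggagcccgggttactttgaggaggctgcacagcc
The capitals mark an AP-1 motif (TGANTCA) from -12 to -6 in Il1a, a Stat motif (TTCNNNGAA) from -191 to -183 in Cxcl14 and an NF-kB motif from -154 to -145 in Csf1, counted from the start site on either strand. Over all 32851 promoter windows of this length, 6.75% held the AP-1 motif, 7.02% the Stat motif and 7.25% the NF-kB motif. Of the 12 genes with an entry, 2 held the AP-1 motif in a window, 1 the Stat motif and 2 the NF-kB motif. These are matches of letters and not measured binding sites.

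The libraries held 15334674 to 19529491 counts on 15274 to 15888 genes, and the RNA features Rn45s and Lars2 took 15% to 23.2% of them. All 7 luminal epithelial markers, among them Cdh1, Epcam and Krt18, were counted in every library, with a summed level of 2843 to 5632 CPM. The lowest sum, 2843 CPM, was that of D5 away and the highest, 5632 CPM, that of D5 around. All 7 markers were higher in D5 around than in D5 away. The part of this epithelial difference in the comparisons between the day 5 libraries was not tested. All 9 stromal markers were also counted, at 367 to 557 CPM in sum, so the layer was not free of stromal RNA. The 9 embryo markers summed to between 4.84 and 12.6 CPM in the libraries other than D5 around, where 5 or 6 of them were at 0. In D5 around they summed to 101 CPM, none was at 0, and Pou5f1 had 68 counts against 0 elsewhere. The part of embryonic RNA in the values of D5 around was not tested. A bulk library cannot tell fewer cells of a type from less RNA per cell.

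Of the 65 genes, 53 were counted in at least 1 library. The 12 without a count were the receptors Ccr3, Ccr4, Ccr6, Ccr8 and Cxcr1 and the ligands Ccl19, Ccl21a, Ccl21b, Ccl21c, Ccl24, Ccl26 and Ccl27b. A count of 0 allows up to 3 counts, or 0.161 to 0.19 CPM depending on the library. A mean of at least 1 CPM over the libraries was reached by 30 of the 65, and by 12915 of all genes. The genes under that mean reached at most 4.65 CPM, which was Cxcr2 in D5 around. The 30 genes therefore stand for the better-counted members and not for all 65. Reads of near-identical copies such as Ccl21a, Ccl21b and Ccl21c could be dropped or split in counting, so their 0 counts are uncertain.

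Members were found on both sides of the 2-fold limit in each comparison, Il1a and Cxcl5 among those higher around the embryo and Cxcl12 and Ccr2 among those lower. From day 3 to day 4 morning, 3 of the 30 (10%) were higher and 6 (20%) lower beyond 2-fold, beside 7.47% and 11.5% of all tested genes. Scaled by library totals the split was 2 to 9, beside 4.16% and 17.1% of all tested genes, and without Rn45s and Lars2 in the totals 3 to 10, beside 5.88% and 14.3%. From day 4 morning to day 4 evening, 6 (20%) were higher, among them Il1b and Cxcl17, and 5 (16.7%) lower, beside 7.21% and 6.95%. D5 away had 8 (26.7%) higher and 7 (23.3%) lower than day 4 morning, beside 14.9% and 14.3%, and library totals moved this split to 11 and 6, beside 20.8% and 10.8%. D5 around had 11 (36.7%) higher and 11 (36.7%) lower, beside 20.7% and 22.6%. Between the day 5 libraries, D5 around was higher for 9 (30%) and lower for 10 (33.3%), beside 13.4% and 15%. The members' share was above that of all tested genes in each of these counts, and this difference was not tested. The median log2 difference of the 30 lay between -0.13 and 0.16 in the 5 comparisons and that of all tested genes between -0.05 and 0.00.

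**Figure D1:**
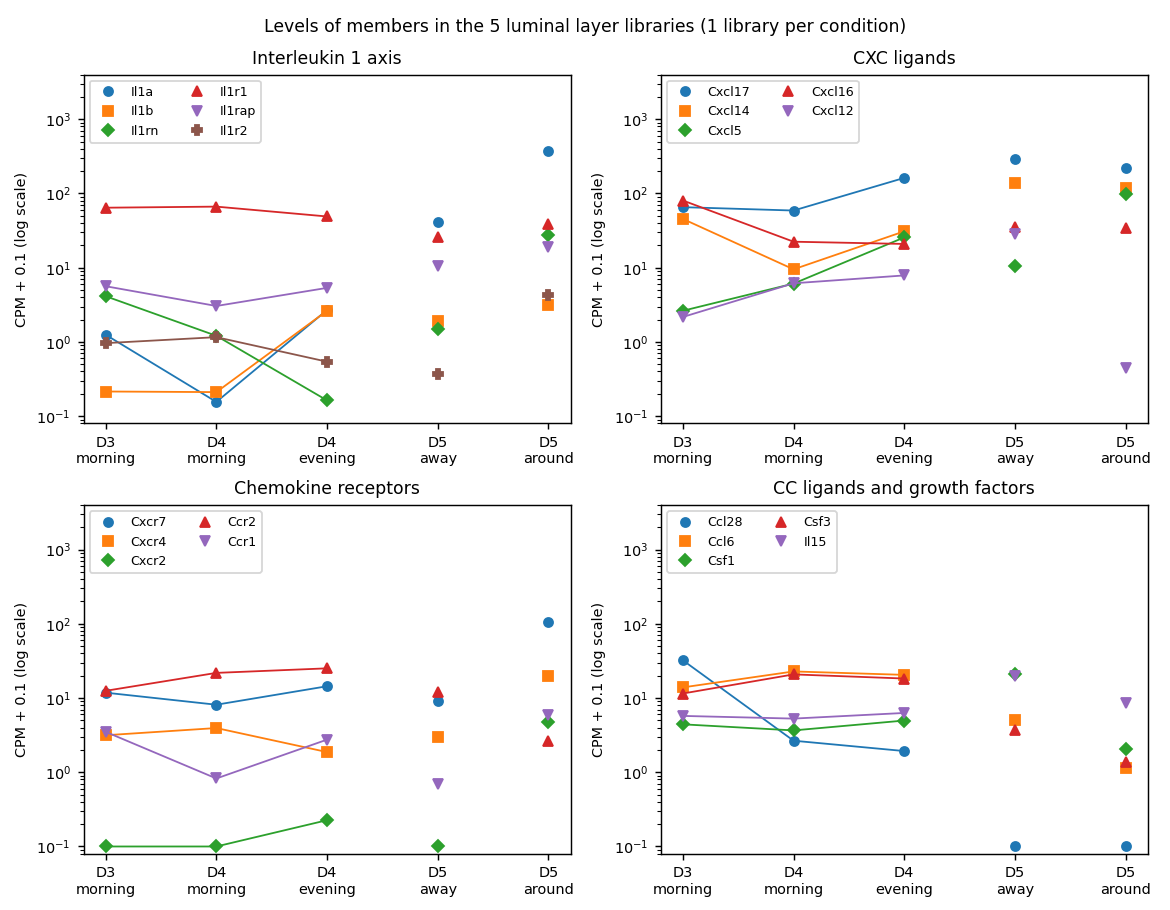
Levels of members in the 5 luminal layer libraries, in CPM plus 0.1 on a log axis, with 1 point per library and lines joining the libraries of days 3 and 4 only. Il1a reached 378 CPM and Cxcr7 106 CPM in D5 around, and Ccl28 had no count on day 5.

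Il1a, the gene of interleukin 1 alpha, was the member with the widest range. It lies on chromosome 2 of mm10, from 129299610 to 129309972 on the minus strand, and codes for protein. It had 20 counts in the day 3 library, 1 in the day 4 morning library, 41 by day 4 evening, 761 in D5 away and 6503 in D5 around, or 1.15, 0.0557, 2.59, 40.8 and 378 CPM. The gene was thus near the counting floor on day 4 morning and high in both day 5 libraries. D5 around exceeded D5 away 9.25-fold [8.58, 9.99]. Because day 4 morning had a single count, its ratio to D5 around, 6781 [1217, 267882], fixes little beyond its lower bound. Against day 4 evening the differences were 15.7-fold [11.5, 22.1] in D5 away and 146-fold [107, 203] in D5 around, a baseline added after the values had been seen. An annotated gene that shares exon sequence with Il1a, Gm14023, had 14, 7, 3, 38 and 106 counts in the same order. With the strand setting not given, reads of such a pair cannot be told apart.

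Il1b, which codes for interleukin 1 beta and is the neighbour of Il1a, stayed low. It had 2 counts on each of day 3 and day 4 morning, 40 on day 4 evening, 34 in D5 away and 53 in D5 around, at most 3.08 CPM. The gene was 22.7-fold [5.89, 194] higher on day 4 evening than in the morning, and the later 3 libraries differed from each other by less than 2-fold. The 2 genes are 54.6 kb apart. Per length, Il1a was at 6.72 times the level of Il1b on day 3 and 0.336 times on day 4 morning. The ratio was 0.689 on day 4 evening, 15 in D5 away and 82.5 in D5 around. These are ratios of RPKM, which is CPM divided by the gene length in kilobases. On day 3 Il1b had 2 counts, and on day 4 morning Il1a had 1 and Il1b 2.

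Il18, another cytokine of the family, was lower on day 5, and Il33, an alarmin of barrier cells, was seen mainly on day 3. Il18 had 154, 80, 55, 34 and 20 counts across the libraries, and was 2.44-fold [1.62, 3.77] lower in D5 away and 3.84-fold [2.33, 6.61] lower in D5 around than on day 4 morning. Il33 had 67 counts on day 3 morning and at most 9 in any later library, below the level used for comparison.

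The antagonist and the receptors of interleukin 1 did not follow the ligand alone. Il1rn, the receptor antagonist, had 70, 20, 1, 26 and 466 counts, so that it was at a single count on day 4 evening and highest in D5 around. D5 around exceeded D5 away 19.4-fold [13.1, 30] and day 4 morning 24.3-fold [15.6, 40.1], while D5 away lay within 2-fold of day 4 morning. Per length, Il1a was 39.9 times as abundant as Il1rn in D5 away and 19 times in D5 around, against 0.389 on day 3 and 0.0682 on day 4 morning. The ratio was highest on day 4 evening, at 55.9, where Il1rn had its single count.

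Il1r1, the signalling receptor, had the highest level per length of the set's receptors in every library but D5 around, where Cxcr7 and Cxcr4 passed it. Its counts were 1115, 1193, 774, 489 and 665, and it was 2.53-fold [2.28, 2.82] lower in D5 away than on day 4 morning and 1.72-fold [1.56, 1.89] lower in D5 around. The co-receptor Il1rap had 96, 53, 83, 196 and 325 counts and was 3.56-fold [2.62, 4.92] and 6.39-fold [4.77, 8.72] higher in D5 away and D5 around than on day 4 morning. The decoy receptor Il1r2 had 15, 19, 7, 5 and 73 counts, which places D5 around 15.8-fold [6.48, 50.1] above D5 away. On the RPKM scale Il1r1 exceeded Il1r2 16.8 to 29.5 times in the other libraries and 2.43 times in D5 around.

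Other genes of the pathway were taken from lists of interleukin 1 partners, NF-kB signalling, inflammasome, colony-stimulating factor receptors and further chemokines. Of the 73 listed, 67 were in the table and 52 had enough counts. Beyond 2-fold, 10 (19.2%) were higher and 9 (17.3%) lower in D5 away than on day 4 morning, beside 14.9% and 14.3% of all tested genes. In D5 around 14 (26.9%) were higher and 14 (26.9%) lower, beside 20.7% and 22.6%. The epithelial relatives Il1f6 and Il1f9, genes of interleukin 36 alpha and gamma, were low on day 4 and high around the embryo, and Il1f6 was also high on day 3. Il1f6 had 581 counts on day 3 morning, 20 and 2 on day 4, 50 in D5 away and 852 in D5 around, and Il1f9 had 4, 0, 0, 17 and 442. Around against away, the differences were 18.5-fold [13.9, 25.1] and 28.2-fold [17.4, 48.8]. Myd88, the adaptor of interleukin 1 and Toll-like receptors, had 23558 counts on day 4 morning, 1091 in D5 away and 1563 in D5 around, 22.4-fold [21.1, 23.9] and 14.5-fold [13.7, 15.2] lower. Bcl3, a nuclear partner of NF-kB, was 2.69-fold [2.3, 3.15] and 10.7-fold [9.35, 12.4] higher, while Rel, a subunit of NF-kB, was 5.08-fold [3.55, 7.45] and 6.2-fold [4.15, 9.59] lower. Il18r1, a receptor chain for interleukin 18, had 159, 37 and 7 counts on day 4 morning, in D5 away and in D5 around.

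**Figure D2:**
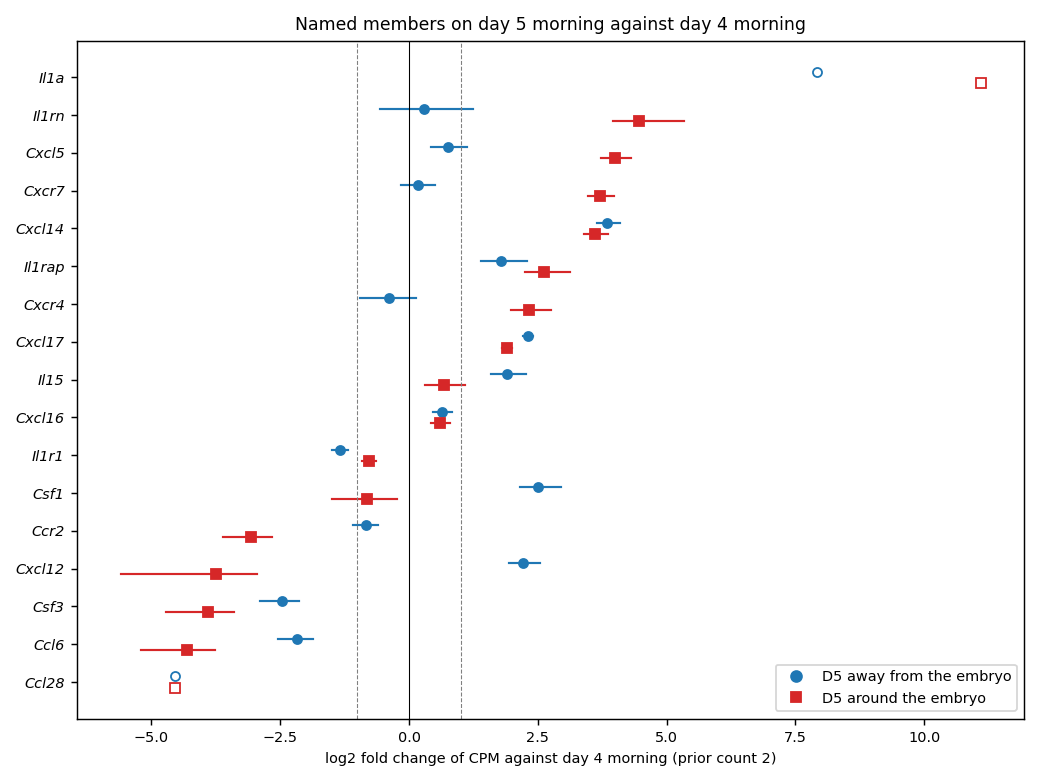
Log2 difference in CPM of 17 members between each day 5 library and day 4 morning, with bars for the 95% counting interval and dashed lines at 2-fold. Open symbols mark a pair in which a library had 0 or 1 counts, where the position depends on the prior count of 2. Cxcl12 and Csf1 lie far apart between the 2 places, and Cxcl14, Cxcl16 and Cxcl17 lie close together.

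Chemokine transcripts came mostly from 4 CXC ligands. Cxcl5, Cxcl14, Cxcl16 and Cxcl17 held 74.9%, 65.4%, 82.9%, 90.4% and 96.5% of all chemokine ligand counts from day 3 morning to D5 around. Cxcl17, a mucosal chemokine, ranked first of the ligands per length in every library, with 85.9, 77.4, 213, 386 and 289 RPKM. The order behind it changed: Cxcl16 was second on day 3, Ccl6 on day 4 morning and Cxcl14 from day 4 evening onward.

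Cxcl17 and Cxcl14, the latter an epithelial chemokine, were higher in both day 5 libraries and differed little between the 2 places. Cxcl17 had 1134, 1056, 2562, 5466 and 3784 counts, and lay 2.75-fold [2.56, 2.96] above day 4 morning by the evening. D5 away and D5 around were 4.98-fold [4.67, 5.33] and 3.74-fold [3.49, 4] above it. Cxcl14, whose promoter is printed above, had 786, 169, 487, 2549 and 2009 counts, lowest on day 4 morning. It was 14.5-fold [12.4, 17.1] higher in D5 away and 12.4-fold [10.6, 14.6] higher in D5 around. Against day 4 evening Cxcl17 stayed within 2-fold in both places, while Cxcl14 was still 4.44-fold [4.03, 4.9] and 3.79-fold [3.43, 4.19] higher.

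Cxcl16, which is made as a membrane-bound ligand of Cxcr6, was highest on day 3 and nearly level on day 5. Its counts were 1394, 400, 329, 653 and 586, 3.6-fold [3.22, 4.04] lower on day 4 morning than on day 3. D5 around and D5 away differed by 1.03-fold [0.919, 1.15]. Its exons overlap those of Zmynd15, which had at most 9 counts.

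Cxcl5, a ligand of Cxcr2 that attracts neutrophils, was the CXC ligand with the largest difference in favour of the layer around the embryo. Its counts were 44, 108, 403, 192 and 1672, so that day 4 evening exceeded D5 away and D5 around exceeded all others. Between the 2 places the difference was 9.43-fold [8.12, 11]. The evening value lay 4.24-fold [3.42, 5.29] above that of the morning.

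The 3 neighbours of Cxcl5 share its class but not its level. Cxcl5, Cxcl3, Cxcl1 and Cxcl2 lie within 147 kb of chromosome 5, from 90759299 to 90905938. Cxcl3 had 0, 30, 27, 5 and 35 counts, Cxcl1 had 2, 7, 20, 15 and 28, and Cxcl2 had 1, 3, 26, 3 and 23. Per length, Cxcl5 exceeded Cxcl1 34.2 times in D5 around and 7.34 to 12.6 times in the other libraries.

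**Figure D3:**
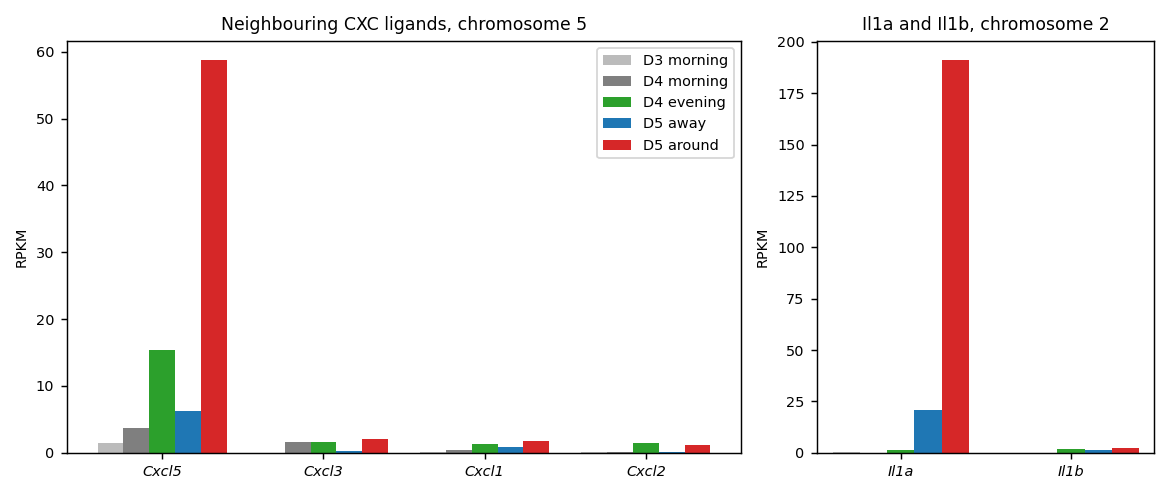
RPKM of 4 neighbouring CXC ligands (left) and of Il1a and Il1b (right), with 1 bar per library and no replicates. Cxcl5 reached 58.7 RPKM and Il1a 191 RPKM in D5 around, while Il1b reached 2.32 RPKM there.

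Cxcl12, the ligand of Cxcr4 and Cxcr7 and a product of stromal cells in many tissues, showed the reverse of Cxcl5. It lies on chromosome 6 of mm10, from 117168535 to 117181368 on the plus strand. It had 36, 109, 123, 535 and 6 counts, high in D5 away and almost absent from D5 around. D5 away exceeded D5 around 82.3-fold [37.6, 225]. Stromal markers went both ways between the 2 places, with 5 of 9 higher in D5 away and 4 higher in D5 around. Lum was at 53.5 CPM in D5 away and 6.68 CPM in D5 around, and Hand2 at 20.9 and 132 CPM. The summed list was 1.33 times as high in D5 away. Their part in the Cxcl12 difference was not tested.

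Both receptors of Cxcl12 were highest where the ligand was lowest. Cxcr7, the atypical receptor on chromosome 1 from 90203980 to 90215722, had 203, 144, 226, 168 and 1822 counts and was 11.7-fold [10, 13.8] higher in D5 around than in D5 away. Cxcr4, the signalling receptor, had 53, 69, 28, 54 and 339 counts, a difference of 6.8-fold [5.09, 9.24]. Against day 4 morning, D5 around was 13.2-fold [11.1, 15.7] higher for Cxcr7 and 5.12-fold [3.94, 6.74] for Cxcr4, while D5 away lay within 2-fold for both. In the other libraries, which included that with the most Cxcl12, Cxcr7 had 144 to 226 counts and Cxcr4 28 to 69, and Cxcr4 was 2.17-fold [1.38, 3.5] lower on day 4 evening than in the morning.

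Cxcr2, the neutrophil receptor for Cxcl5, was below the level for comparison, but its counts were nearly all in D5 around. It had 0, 0, 2, 0 and 80 counts, at least 28.9-fold higher in D5 around than in D5 away and at least 27.8-fold higher than on day 4 morning, both set against the floor of 3 counts. Cxcr1, 30.5 kb away on chromosome 1, had no count. The 7 neutrophil markers in the table summed to 58.7 CPM in D5 around and 1.34 to 3.6 CPM elsewhere. Nearly all of the sum in D5 around was S100a8, with 955 counts there and at most 21 elsewhere. S100a9 had 35 counts there and 30 on day 4 evening. Csf3r had 16 in each day 5 library and 27 on day 4 morning. Mpo had 5 in D5 around, and Ngp, Camp and Retnlg had 0. Their part in the Cxcr2 counts was not tested.

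Ccr1, a receptor of inflammatory CC ligands, and Cxcr5, a receptor of B cells, were also higher around the embryo than away from it. The Ccr1 counts were 59, 13, 42, 11 and 100, and D5 around exceeded D5 away 9.85-fold [5.27, 20.4]. Cxcr5 had 35 counts in D5 around and 15 in D5 away, 2.53-fold [1.34, 4.98] higher, and Cxcr3 had 29 and 58, within 2-fold.

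Ccr2 and Cxcr6 were lower around the embryo than away from it. Ccr2, a receptor of monocytes, had 216, 390, 395, 226 and 43 counts. It was 8.7-fold [6.34, 12.2] lower in D5 around than on day 4 morning and 4.85-fold [3.49, 6.89] lower than in D5 away. Cxcr6, a receptor of T and natural killer cells, had 111, 73, 19, 54 and 23 counts and was 2.17-fold [1.31, 3.7] lower in D5 around than in D5 away. Neighbouring genes were not alike: Ccr1 and Ccr2 are in a receptor cluster on chromosome 9 and differed in direction.

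Among the CC ligands, Ccl6, a macrophage chemokine, had the highest level per length on day 4. It had 239, 408, 323, 92 and 18 counts and was 4.61-fold [3.67, 5.84] lower in D5 away and 21.7-fold [13.6, 37] lower in D5 around than on day 4 morning. Ccl4 and Ccl5, which attract monocytes and T cells, were 12.2-fold [4.51, 46.5] and 2.48-fold [1.44, 4.45] lower in D5 around than in D5 away. Ccl9 had 31 and 20 counts in D5 away and D5 around. Ccl25, a mucosal ligand of Ccr9, was level at 42 to 48 counts from day 4 morning onward.

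The summed level of the macrophage and monocyte markers was also lowest in D5 around. It was 768, 1300, 981, 512 and 162 CPM, and all 9 in the table were counted in every library. Cd14 was the largest part of each sum, at 465, 900, 633, 202 and 54.5 CPM. Lyz2 came next, at 195, 287, 257, 187 and 41.1 CPM. Of the 9, 7 were lower in D5 around than in D5 away, with Csf1r lower 4.24 times, C1qa 5.32 times and Lyz2 4.56 times. The other 2 were higher in D5 around, Cd68 at 38.9 against 11.8 CPM and Fcgr3 at 8.24 against 5.74 CPM. The general leukocyte list summed to 98.4 and 88.4 CPM, with 4 of its 6 genes lower in D5 around, among them Ptprc 3.5 times, and 2 higher. The T and natural killer list stood at 20.4 and 2.32 CPM, with Ncr1 at 86 and 0 counts. The part of these cells in the lower chemokine genes was not tested.

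**Figure D4:**
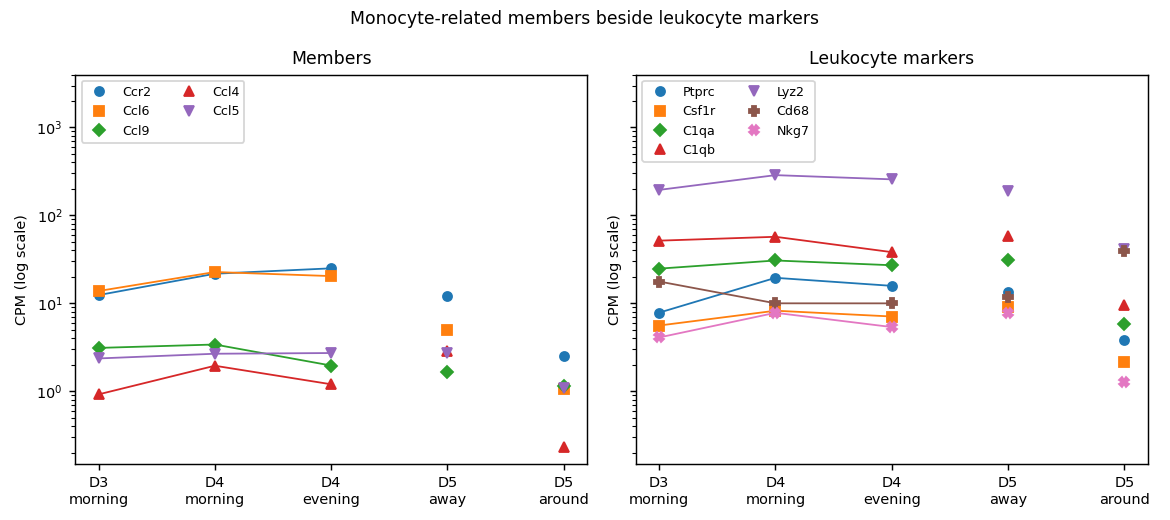
CPM on a log axis of monocyte-related members (left) and 7 leukocyte markers (right) in the 5 libraries, with lines joining days 3 and 4 only. Ccr2, Ccl4, Ccl5, Ccl6 and Ccl9 were lowest in D5 around, as were the plotted markers other than Cd68.

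Ccl28, a mucosal chemokine of epithelia, was a day 3 gene. It had 557 counts on day 3 morning, 46 and 29 on day 4 and none on day 5. Day 4 morning was 12.5-fold [9.26, 17.3] below day 3, and D5 away and D5 around were at least 15.9-fold and 14.7-fold lower than day 4 morning. Ccl20, the ligand of Ccr6, had 0 counts until day 4 evening, 6 in D5 away and 19 in D5 around.

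The remaining inflammatory ligands were scarce, and their few counts had no common order. Ccl2 and Ccl7, monocyte attractants that are neighbours on chromosome 11, had 7, 33, 2, 4 and 11 counts and 4, 14, 6, 5 and 32 counts. Ccl3 and Ccl12 were counted mostly in D5 away among the day 5 pair, with 28 and 26 counts there against 1 and 0 around the embryo. Of the interferon-induced ligands of Cxcr3, Cxcl10 had 27 counts on day 3 and 7 in each day 5 library. Cxcl9 had 13 counts in D5 away and 0 in D5 around, and Cxcl11 had at most 2 counts. Ccl11, which attracts eosinophils, had 30 counts on day 3 and on day 4 evening and at most 9 elsewhere. Ccl22, a ligand of Ccr4, had 25 counts on day 3 and at most 5 later.

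The growth factors of myeloid cells and Il15 separated the 2 places on day 5. Csf1, the macrophage growth factor whose promoter is printed above, had 75, 64, 77, 387 and 34 counts, and D5 away exceeded D5 around 10.5-fold [7.39, 15.4]. Il15, a survival factor of natural killer cells, had 98, 93, 98, 368 and 144 counts, 2.36-fold [1.94, 2.88] higher in D5 away. Csf3, the neutrophil growth factor, had 198, 371, 288, 68 and 22 counts. It was 5.67-fold [4.37, 7.45] lower in D5 away and 16.2-fold [10.5, 26.1] lower in D5 around than on day 4 morning. Csf2 had at most 4 counts. Il34, which is the second ligand of the Csf1 receptor and not a member, had 4, 14, 29, 589 and 263 counts and was 40.5-fold [24, 74.6] and 19.6-fold [11.5, 36.3] above day 4 morning in D5 away and D5 around.

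Set beside each other, the 2 day 5 libraries and their shared day 4 morning baseline sorted the 30 members by place. Cxcl14, Cxcl17, Il1a, Il1b and Il1rap were higher beyond 2-fold in both, beside 10.9% of all tested genes. Ccl28, Ccl6, Csf3 and Il18 were lower in both, beside 10.8%. Ccr1, Cxcl5, Cxcr4, Cxcr7 and Il1rn were higher only in D5 around, beside 9.1%, and 6 were lower only there, Ccl4, Ccl5, Ccl9, Ccr2 and Cxcr6 among them, beside 11.3%. Of these, Ccl9 was at -0.98 (log2) in D5 away, just inside the limit. Csf1 and Il15 were higher only in D5 away, beside 3.55%, and Cxcl3 and Il1r1 lower only there, beside 2.76%. Cxcl12 and Il1r2 passed 2-fold in opposite directions, and Ccl25, Cxcl16, Cxcr3 and Cxcr5 stayed within it, beside 50.3%. These classes rest on the 2-fold limit, on 1 library each and on a baseline that both comparisons share.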

How the data were processed

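RNA of the microdissected luminal layer was amplified with the SMART-seq v.4 kit and sequenced as paired-end reads. The authors aligned the reads to GRCm38/mm10 with HISAT2 and deposited raw counts per gene from featureCounts (Subread 2.0.0, per the submitters' processing notes), together with the coordinates and the length in bases of each gene. The annotation, strand setting and handling of reads with several alignments are not given in the sources used here. Gene types, and the exons that the promoter stretches were checked against, were read from GENCODE vM21. Exon overlaps between genes were read from the deposited coordinates.

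Counts were scaled by TMM in edgeR 4.0.16 (R 4.3.3) and expressed as CPM, with further steps in Python 3.11.15, numpy 2.4.6 and pandas 2.3.3. A prior count of 2 was added for log2 values, and comparisons used the genes that averaged 1 CPM or more. A gene was counted as higher or lower beyond 2-fold. Ratios have exact 95% Clopper-Pearson intervals (scipy 1.17.1), and a library at 0 was set to a floor of 3 counts. No count was tested, since each condition has 1 library. Named were members with at least 10 CPM in a library, and pathway genes with at least 10 CPM that passed 2-fold from day 4 morning in both day 5 libraries. Members under 10 CPM that are named were chosen after their values were seen. A gene that is a member is not reported here by name but is in the counts of members. Members and lists were chosen with earlier results of these data known. The calculations were tested on simulated data. Plots used matplotlib 3.10.9.

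The alternatives were DESeq2 1.42.0 size factors, library totals with and without Rn45s and Lars2, a prior count of 0.5, no filter, a mean of at least 5 CPM, a 4-fold limit and edgeR's exact test at an assumed dispersion of 0.1. Day 4 evening as baseline was added after the data were seen.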

Additional observations from a re-analysis of the deposited data

Results flagged for a closer look

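Cxcl12 and Il1r2 differed in opposite directions from day 4 morning in the 2 day 5 libraries. For Cxcl12, the ligand of Cxcr4 and Cxcr7, the log2 difference was 2.22 in D5 away and -3.74 in D5 around. For Il1r2, the decoy receptor of interleukin 1, it was -1.61 in D5 away and 1.89 in D5 around. Its counts were 19 on day 4 morning, 5 in D5 away and 73 in D5 around. The lower value in D5 away was 3.95-fold [1.43, 13.5], an interval that reaches below 2-fold. Against day 4 evening, at 7 counts, Il1r2 in D5 away was within 2-fold. Each direction rests on 1 library per place, both use the same day 4 morning library, and the difference between the places was not tested. Over all tested genes, 0.519% were higher beyond 2-fold in D5 away and lower in D5 around, and 0.743% the reverse.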

How the results depend on the processing

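The counts of members beyond 2-fold changed by more than 1.5 times under the filter, the fold limit, the exact test and 1 scaling. The filter also sets how many members are compared: 30 as reported, 53 without it and 17 at a mean of 5 CPM. Without the filter 7 were higher and 12 lower for day 4 morning against day 3, beside 9.29% and 14.8% of all genes tested so. For day 4 evening against morning they were 15 and 9, beside 10.6% and 9.1%. D5 away had 13 and 12, beside 15.7% and 14.8%. D5 around had 19 and 17, and 16 were higher in D5 around than in D5 away. With a filter at a mean of 5 CPM, 2 were lower on day 4 evening and 4 in D5 away, beside 4.47% and 12.5%. In D5 around 5 were lower, and between the places 5 were higher and 6 lower. At 4-fold, 1 was higher on day 4 morning, beside 1.19%. On day 4 evening 3 were higher and 2 lower, beside 2.38% and 1.39%. In D5 away 4 were lower, beside 5.8%, and 7 were lower in D5 around and 5 in D5 around against D5 away. With edgeR's exact test at an assumed dispersion of 0.1, 1 was higher and 3 lower on day 4 morning, beside 0.72% and 2.97%. On day 4 evening 2 were higher and 0 lower (5 were lower by fold alone), beside 1.22% and 0.643%. In D5 away 3 were lower, beside 5.88%, and 5 were lower between the places. Library totals without Rn45s and Lars2 gave 10 lower on day 4 morning. Over all tested genes, the share called ran from 9.1% to 23.8% without the filter and from 4.47% to 19.9% at 5 CPM. It ran from 1.19% to 10.5% at 4-fold and from 0.643% to 12.3% with the exact test. With library totals without Rn45s and Lars2 it was 14.3%. The ranges span several comparisons, so a count given without its own share cannot be read against them. The cause of the changes in these counts was not tested.

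Of 340 recomputed values of named genes, 35 left the counting interval and 3 changed sign, none of them beyond 2-fold. Il1r1, at 0.05 (log2) for day 4 morning against day 3, was at -0.25 with library totals and -0.10 without Rn45s and Lars2, and Cxcl16, at -0.04 between the places, was at 0.02 with DESeq2 size factors. With library totals, the median log2 difference of all tested genes was -0.28 for day 4 morning against day 3, from 0.00 as reported. It was 0.28 for D5 away against day 4 morning, from 0.00, and -0.36 between the places, from -0.05. With day 4 evening as baseline, chosen after seeing the data, D5 away had 9 higher and 7 lower, beside 12.9% and 12.7%. D5 around had 10 and 10, beside 19.1% and 20.7% of all tested genes. No paired analysis was possible because each condition has 1 library, and for the same reason no library could be left out. Depth limits genes under about 3 counts.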

Other observations

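Of 12 inflammasome genes, a complex that processes interleukin 1 beta and interleukin 18, 6 had enough counts. Of these 6, 4 were lower beyond 2-fold in D5 around than in D5 away, 0 were higher and 2 stayed within 2-fold, with no test, beside 15% and 13.4% of all tested genes lower and higher. Pycard, the adaptor of the complex, had 2826 counts on day 4 morning, 4091 in D5 away and 382 in D5 around, 9.89-fold [8.9, 11] lower around the embryo than away from it. Casp1, the protease that cleaves both cytokines, was 3.24-fold [2.82, 3.74] lower and Casp4 2.86-fold [2.4, 3.42] lower. The other gene called lower, Gsdmc, had 4 counts in D5 away and 0 in D5 around, near the floor of 3 counts. Il1f8, the gene of interleukin 36 beta, had 431, 567 and 1220 counts on day 4 morning, in D5 away and in D5 around. The genes named here were chosen after their values were seen.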
